A study of Mus musculus with 6 samples.

Results

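The collagen crosslinking and hydroxylation enzymes comprise the lysyl oxidases Lox, Loxl1, Loxl2, Loxl3 and Loxl4, the lysyl hydroxylases Plod1 and Plod2, and the prolyl 4-hydroxylase subunits P4ha1, P4ha2 and P4ha3. These 10 genes were chosen by name, and each was found among the 48440 genes of the count table. They were measured in murine subcutaneous tissue entangled with BEC, an engineered cartilage grown from rabbit BMSCs on PLGA scaffolds, which was wrapped in an electrospun PCL/collagen membrane and implanted in BALB/c nude mice (male). The 0%-Axitinib group (3 samples) had membranes without drug, and the 3%-Axitinib group (3 samples) had membranes in which axitinib, an inhibitor of the VEGF receptor tyrosine kinases, was present at 3%. Both groups were harvested 12 weeks after implantation. In the labels the drug-free samples are called untreated, and they were read as the 0%-Axitinib group because the protocol given for all samples names 0% and 3% membranes alone. No mouse is named for any sample, so the p-values measure only the spread between these samples, some of which may share an animal. The implants were of rabbit origin, and whether rabbit reads were counted on mouse genes was not tested. Reads on genes numbered from 9225518 to 18403795 per sample, and each of the 10 genes had between 47 and 9593 reads in every sample.

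Collagen chains are modified inside the cell before they fold. Prolyl 4-hydroxylase, a tetramer of catalytic alpha subunits with the P4hb protein, hydroxylates proline and thereby stabilises the triple helix, and lysyl hydroxylases prepare the lysines that later form crosslinks. After secretion, the copper-dependent lysyl oxidases turn lysine and hydroxylysine into aldehydes that join neighbouring collagen or elastin molecules, which gives cartilage, bone and fibrous capsules much of their stiffness.

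Of the 10 enzymes, 5 were higher in the 3%-Axitinib group by the study's criterion, a 1.5-fold or larger difference with p no greater than 0.05, the p taken as unadjusted and from edgeR's quasi-likelihood test. They were Lox, Loxl1, Loxl4, Plod1 and P4ha2, and 9.54% of the 15257 tested genes were higher by the same criterion. None of the 10 was lower by this criterion, against 11.7% of the tested genes. The same 5 were the enzymes whose lowest 3%-Axitinib sample lay above the highest 0%-Axitinib sample, a pattern shown by 14.7% of tested genes, and 0 enzymes showed the opposite pattern, against 16.6%. The median log2 fold change was 1.08 over the 10 enzymes and −0.03 over the tested genes, and the fitted value was above 0 for 10 of 10 enzymes and for 48.2% of tested genes. With Benjamini-Hochberg adjustment across the tested genes, edgeR's quasi-likelihood test placed 0 of the 10 enzymes and 0.00655% of the tested genes (1 gene) at or below 0.05. Unadjusted, the same test placed 5 of the 10 there, beside 23.5% of tested genes. By adjusted p, DESeq2's Wald test placed 4 there (Lox, Loxl1, Loxl4 and Plod1), beside 6.52% of the 26823 genes it was run on. Those include genes with low counts that are not among the 15257, so the shares have unlike bases. By adjusted p, limma-voom gave 0, beside 0.0131% of its genes. The tissue was measured in bulk, so a change in the number of expressing cells and a change in RNA per cell cannot be told apart.

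The samples within a group were far from uniform. Replicate 2 of the 3%-Axitinib group was the highest of the 6 samples for 9 of the 10 enzymes and for 16.4% of tested genes. Replicate 3 of the 0%-Axitinib group was the lowest for 9 of the 10 and for 26.8% of tested genes. On the log2 scale, the median of the 10 enzymes relative to the 0%-Axitinib mean was 0.53, 0.21 and −0.73 in replicates 1, 2 and 3 of the 0%-Axitinib group. In the 3%-Axitinib group it was 1.12, 1.36 and 0.70 in the same order. Thus the medians of the groups did not overlap, while the samples of the 0%-Axitinib group alone spanned more than a log2 unit. The number of enzymes that met the criterion was 8 without replicate 1 of the 0%-Axitinib group, when 9.72% of tested genes were higher, and 4 or 5 without any other single sample (6.65% to 14.5% of tested genes). The number whose groups did not overlap became 10 without replicate 3 of the 3%-Axitinib group (18.4% of tested genes) and 8 without replicate 1 of the 0%-Axitinib group (19.4% of tested genes).

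**Figure D1:**
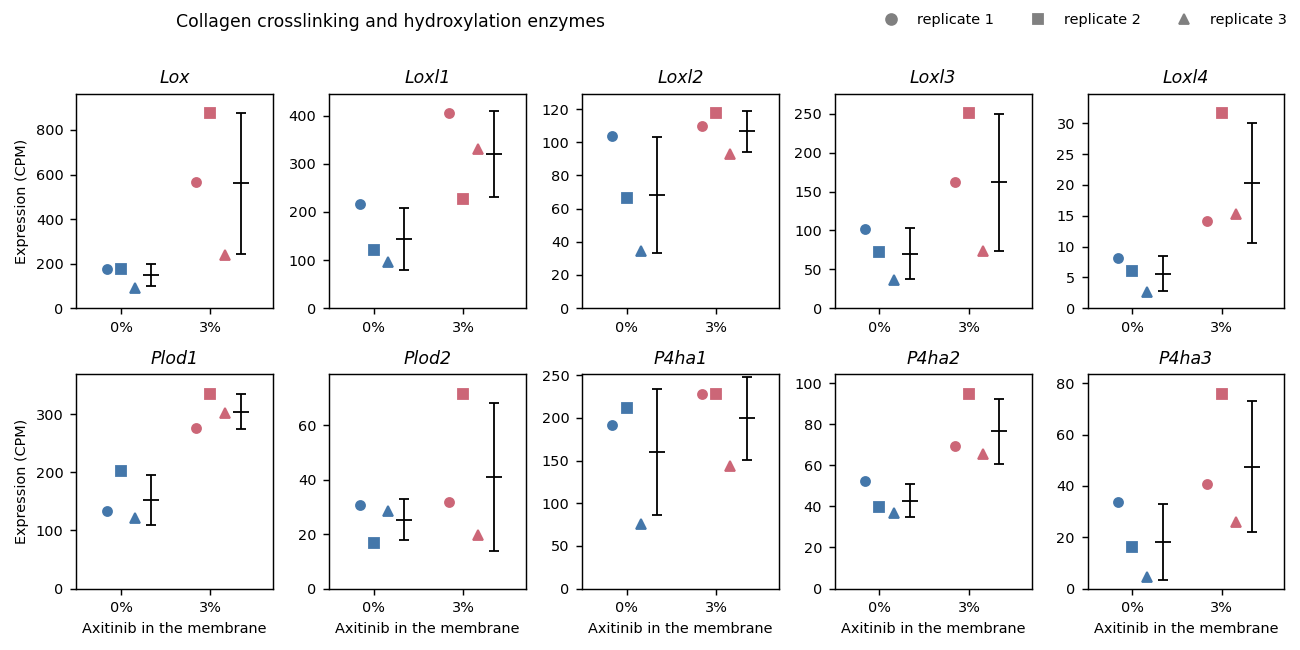
Expression of the 10 enzymes (CPM, vertical axes from 0) in the 3 samples of each group, with the marker shape giving the replicate number and the bar giving mean ± SD. The 5 enzymes whose groups do not overlap are Lox, Loxl1, Loxl4, Plod1 and P4ha2, and the 3%-Axitinib square (replicate 2) is the highest point for 9 of 10.

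Lox, the founding lysyl oxidase that acts on collagen and elastin, lies on chromosome 18 from 52516067 to 52529867 (GRCm38, minus strand, GENCODE M21). Its expression was 174, 177 and 91.0 CPM (reads scaled to library size after TMM normalization) in replicates 1, 2 and 3 of the 0%-Axitinib group, and 567, 874 and 239.7 CPM in those of the 3%-Axitinib group. Each 3%-Axitinib sample exceeded each 0%-Axitinib sample, but the 3%-Axitinib samples themselves spread widely, with replicate 2 at the top and replicate 3 nearest to the other group. The group values were 147 ± 48.7 and 560.2 ± 317 CPM (SD, n = 3), and the fitted log2 fold change was 1.93 (standard error 0.52). In edgeR's quasi-likelihood test the unadjusted p was 0.00726 and the adjusted p was 0.111. The log2 fold change lay between 1.45 and 2.28 when single samples were left out, with the smallest value without replicate 2 of the 3%-Axitinib group, and the criterion was met each time.

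Loxl1, a lysyl oxidase known for its part in elastic fibre upkeep, lies on chromosome 9 from 58287738 to 58313186 (minus strand). It was expressed at 217, 120.0 and 95.3 CPM in the 0%-Axitinib samples, compared with 405, 226 and 331 CPM in the 3%-Axitinib samples. The groups did not overlap, but the gap was narrow: replicate 1 of the 0%-Axitinib group came close to replicate 2 of the 3%-Axitinib group, the sample in which most of the other enzymes peaked. The means were 144 ± 64.5 and 321 ± 89.5 CPM (SD, n = 3), and the fitted log2 fold change was 1.15 (standard error 0.38), with an adjusted p of 0.146 in edgeR's quasi-likelihood test. Its unadjusted p of 0.0194 in this test became 0.0652 without replicate 2 of the 0%-Axitinib group, 0.0754 without replicate 1 of the 3%-Axitinib group and 0.0581 without replicate 3 of that group, so that the criterion was no longer met, while the log2 fold change was 1.03, 0.95 and 1.12.

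Loxl2, Loxl3 and Loxl4 carry scavenger receptor domains beside the catalytic domain. Loxl4, the least abundant of them, lies on chromosome 19 from 42593982 to 42612813 (minus strand) and was expressed at 8.14, 6.01 and 2.55 CPM in the 0%-Axitinib samples, compared with 14.1, 31.6 and 15.3 CPM in the 3%-Axitinib samples. The groups did not overlap, and replicate 2 of the 3%-Axitinib group stood above both other 3%-Axitinib samples. The means were 5.57 ± 2.82 and 20.3 ± 9.80 CPM (SD, n = 3), and the fitted log2 fold change was 1.87 (standard error 0.52) with an adjusted p of 0.117 in edgeR's quasi-likelihood test. Loxl3, on chromosome 6 from 83034173 to 83052562, was expressed at 102, 71.7 and 36.0 CPM without the drug and at 162, 251 and 73.9 CPM with it. Here replicates 1 and 2 of the 3%-Axitinib group were high, whereas replicate 3 lay among the 0%-Axitinib samples. Its log2 fold change of 1.22 (standard error 0.53) did not meet the criterion, with an unadjusted p of 0.0540 in edgeR's quasi-likelihood test. In the same test this p was 0.0339 without replicate 1 of the 0%-Axitinib group and 0.0207 without replicate 3 of the 3%-Axitinib group, and the criterion was then met. Over all samples left out the log2 fold change of Loxl3 ran from 0.75 (without replicate 2 of the 3%-Axitinib group) to 1.59. For Loxl2, which is known to crosslink type IV collagen of basement membranes and lies on chromosome 14 from 69609068 to 69695834, the values were 104, 66.5 and 34.2 CPM in the 0%-Axitinib samples, compared with 109.5, 117 and 92.7 CPM in the 3%-Axitinib samples. The 3%-Axitinib samples were close together, and the highest 0%-Axitinib sample fell within their range. The log2 fold change was 0.64 (standard error 0.38) and the unadjusted p was 0.139 in edgeR's quasi-likelihood test. Without replicate 1 of the 0%-Axitinib group it was 1.08 with an unadjusted p of 0.0193 in that test, which met the criterion, and without replicate 3 of that group it was 0.32 with an unadjusted p of 0.226.

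Lox, Loxl2 and Loxl3 share their loci with other annotated genes, and whether reads were counted by strand is not stated in the sources used here. Lox has an antisense transcript (AC161119.1) on the other strand, Loxl2 overlaps Gm27177 and Gm37513 on the other strand and Mir6950, and Loxl3 overlaps Htra2 on the other strand and Mir7040. Plod2 likewise overlaps Gm38391 on the other strand. Reads that fit more than 1 gene were set aside in the deposited counts (3.55% to 5.74% of a library), and how many of them came from these loci is not given.

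Among the lysyl hydroxylases, Plod1 differed most clearly between the groups. This enzyme, which modifies lysines of the triple helix, lies on chromosome 4 from 147909753 to 147936767 (minus strand). It was expressed at 134, 203 and 121 CPM in the 0%-Axitinib samples, compared with 276, 335 and 303 CPM in the 3%-Axitinib samples. The 3%-Axitinib samples were tight and stood apart from the highest 0%-Axitinib sample (replicate 2). The means were 153 ± 43.8 and 305 ± 29.5 CPM (SD, n = 3), and the fitted log2 fold change was 1.00 (standard error 0.26), and the adjusted p was 0.110 in edgeR's quasi-likelihood test. The criterion was met without any single sample, with log2 fold changes between 0.85 and 1.25.

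Plod2, which hydroxylates the lysines of the telopeptides at the ends of the helix, lies on chromosome 9 from 92542223 to 92608428, on the same chromosome as Loxl1. Its values were 30.7, 16.8 and 28.5 CPM without axitinib and 31.9, 71.4 and 19.6 CPM with it. Only replicate 2 of the 3%-Axitinib group stood out, and the other samples of that group lay near the 0%-Axitinib range. The log2 fold change was 0.69 (standard error 0.49, unadjusted p = 0.199 in edgeR's quasi-likelihood test), and it was 0.02 without replicate 2 of the 3%-Axitinib group. Plod3, the remaining paralog, which also transfers sugars to hydroxylysine, was expressed at 219.9, 215 and 166 CPM in the 0%-Axitinib samples, compared with 263, 274 and 267 CPM in the 3%-Axitinib samples. Its groups did not overlap either, but the log2 fold change of 0.42 (standard error 0.21) did not meet the criterion.

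Of the prolyl 4-hydroxylase subunits, P4ha2, the form that is prominent in chondrocytes, met the criterion. It lies on chromosome 11 from 54100095 to 54131665 and was expressed at 52.1, 39.9 and 36.6 CPM in the 0%-Axitinib samples, compared with 69.5, 94.8 and 65.4 CPM in the 3%-Axitinib samples. No 0%-Axitinib sample reached the 3%-Axitinib range, in which replicate 2 was again the highest. The means were 42.9 ± 8.21 and 76.5 ± 15.9 CPM (SD, n = 3), and the fitted log2 fold change was 0.84 (standard error 0.23) with an adjusted p of 0.116 in edgeR's quasi-likelihood test. Leaving out single samples gave values between 0.65 and 1.00, each of which met the criterion.

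P4ha1, the main catalytic subunit in most tissues, lies on chromosome 10 from 59323296 to 59373304. Its expression was 192, 212 and 75.2 CPM in the 0%-Axitinib samples, compared with 228, 228 and 144 CPM in the 3%-Axitinib samples. In both groups replicate 3 was the low sample, and replicate 3 of the 3%-Axitinib group lay below replicates 1 and 2 of the 0%-Axitinib group. The log2 fold change of 0.32 (standard error 0.41) was smaller than its error, and it was −0.02 without replicate 3 of the 0%-Axitinib group. P4ha3, a less abundant isoform on chromosome 7 from 100285520 to 100319699, was expressed at 33.7, 16.4 and 4.51 CPM without the drug and at 40.8, 75.9 and 26.1 CPM with it. Relative to its mean, it varied more between samples of a group than P4ha1 or P4ha2 did, and replicate 1 of the 0%-Axitinib group lay above replicate 3 of the 3%-Axitinib group. The fitted log2 fold change was 1.39 (standard error 0.71, unadjusted p = 0.0914 in edgeR's quasi-likelihood test). Without replicate 1 of the 0%-Axitinib group it was 2.18 with an unadjusted p of 0.0197 in this test, which met the criterion, whereas without replicate 2 of the 3%-Axitinib group it was 0.86 with an unadjusted p of 0.305. P4hb, the partner subunit that is also a general disulfide isomerase, was expressed at 823, 904 and 715 CPM and at 979, 1294 and 1029 CPM in the same order, without overlap of the groups. Its log2 fold change of 0.44 (standard error 0.27) did not meet the criterion.

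Levels of different genes were compared as CPM per kilobase of exon. In the 0%-Axitinib group the most abundant enzymes were Loxl1 (43.7 ± 19.6), P4ha1 (38.8 ± 17.9) and Lox (30.8 ± 10.2), followed by Plod1 (22.5 ± 6.47; SD, n = 3). These were followed by Loxl3 at 15.2, Loxl2 at 12.6, P4ha2 at 6.87, P4ha3 at 5.80 and Plod2 at 4.70 CPM per kilobase, with Loxl4 at 1.32. Neighbours in this order differed by more than the larger of their SDs only between Plod1 and Loxl3 and between Plod2 and Loxl4. In the 3%-Axitinib group Lox (117 ± 66.4) and Loxl1 (97.3 ± 27.1) led, ahead of P4ha1 (48.6 ± 11.8), Plod1 (45.0 ± 4.36) and Loxl3 (35.2 ± 19.2; CPM per kilobase, SD, n = 3). Loxl2 at 19.7, P4ha3 at 15.2, P4ha2 at 12.3, Plod2 at 7.60 and Loxl4 at 4.82 CPM per kilobase came after them. Here the step from Loxl1 to P4ha1 was the only one between neighbours that exceeded the larger SD. The order depends on the length used: with the longest transcript, Plod1 lay above Lox in the 0%-Axitinib group (37.2 and 31.0 CPM per kilobase) and above P4ha1 in the 3%-Axitinib group (74.4 and 49.4 CPM per kilobase), and P4ha2 lay above Loxl2 in both.

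The makeup of each enzyme family was followed as the share of each gene in the summed CPM per kilobase of the family, and 11 shares (the 10 enzymes and Plod3) were compared by exact two-sided permutation tests, in which 3 samples against 3 cannot give a p below 0.1. Lox made up 25.0%, 36.0% and 30.4% of the lysyl oxidase family in the 0%-Axitinib samples and 39.5%, 54.6% and 26.8% in the 3%-Axitinib samples. Its share was largest in replicate 2 of the 3%-Axitinib group and overlapped between the groups. The share of Loxl2 was 13.2%, 12.0% and 10.1% without axitinib and 6.75%, 6.48% and 9.15% with it, which was lower in all 3 samples (exact permutation p = 0.1). In replicate 2 of the 3%-Axitinib group Loxl1 made up 20.5% of the family, against 35.4% to 53.6% in the other 5 samples, and the sign of the difference in its mean share turned without that sample (−3.96 to 4.95 percentage points).

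Within the lysyl hydroxylases, the share of Plod1 was 26.7%, 37.2% and 29.9% in the 0%-Axitinib samples and 38.9%, 40.2% and 41.6% in the 3%-Axitinib samples. The shares did not overlap (exact permutation p = 0.1), and the share of Plod3 was correspondingly 61.9% ± 3.40 and 53.2% ± 3.54 (SD, n = 3). Plod2 accounted for between 3.39% and 10.7% in single samples, with overlap. Among the prolyl 4-hydroxylase subunits, P4ha1 contributed 70.9%, 81.6% and 71.5% without the drug and 69.6%, 58.5% and 65.0% with it, so it was the main subunit in every sample and its share was lower in each 3%-Axitinib sample (exact permutation p = 0.1). This separation ended when the longest transcript was taken as length: the share of P4ha1 was then 58.7% in replicate 1 of the 3%-Axitinib group and 57.4% in replicate 3 of the 0%-Axitinib group (exact permutation p = 0.2). The shares of P4ha2 and P4ha3 overlapped between the groups, and P4ha3 had its largest share, 25.5%, in replicate 2 of the 3%-Axitinib group. Shares of one family sum to the whole and are therefore not independent of each other.

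**Figure D2:**
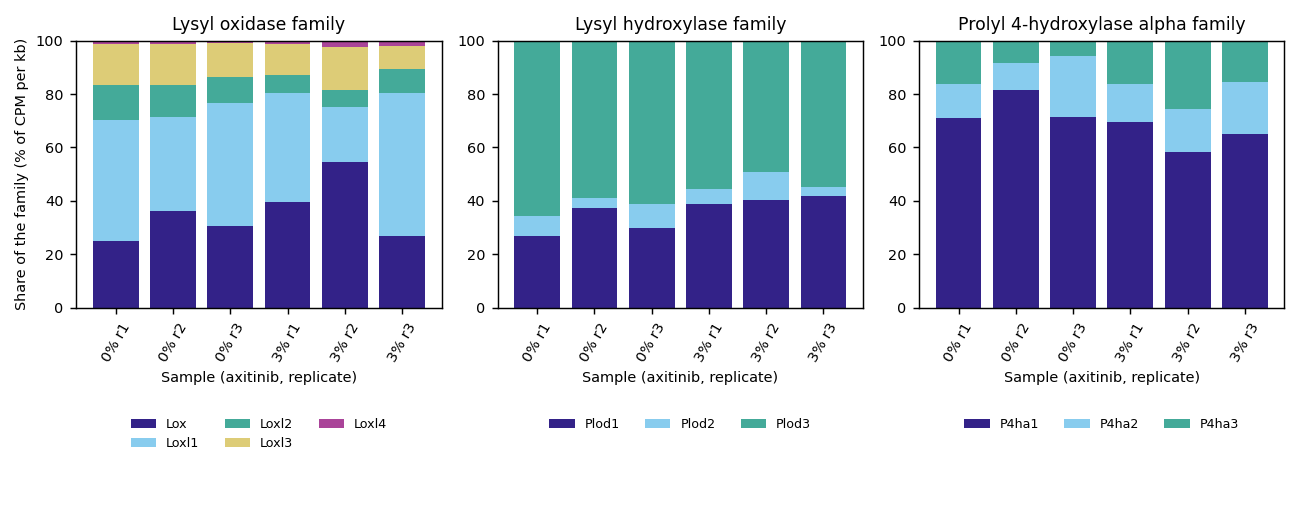
Share of each gene in the summed CPM per kilobase of its family (vertical axis, percent from 0 to 100) in each of the 6 samples, labelled by axitinib content and replicate. Plod1 ranges from 38.9% to 41.6% in the 3%-Axitinib samples, above the 37.2% of the highest 0%-Axitinib sample, and Lox is largest (54.6%) in replicate 2 of the 3%-Axitinib group.

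Summed over the family, the lysyl oxidases reached 145, 103 and 62.7 CPM per kilobase in the 0%-Axitinib samples and 300.2, 335 and 187 CPM per kilobase in the 3%-Axitinib samples. The groups did not overlap (exact two-sided permutation test, p = 0.1). The lysyl hydroxylases, Plod3 included, gave 74.1, 80.5 and 59.8 CPM per kilobase without axitinib and 105, 123 and 107 CPM per kilobase with it, again without overlap (exact permutation p = 0.1). The sum of the prolyl 4-hydroxylase alpha subunits overlapped, at 51.5 ± 22.5 and 76.0 ± 20.8 CPM per kilobase (SD, n = 3).

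The main substrates, the chains of type I and type III collagen, were dominated by a single sample. Col1a1 was expressed at 7130, 3236 and 3181 CPM in the 0%-Axitinib samples, compared with 6774, 30639 and 9337 CPM in the 3%-Axitinib samples. Replicate 2 of the 3%-Axitinib group far exceeded all others, replicate 1 of the 3%-Axitinib group lay below replicate 1 of the 0%-Axitinib group, and the groups therefore overlapped, although the log2 fold change of 1.79 (standard error 0.72) met the criterion. Col1a2 (log2 fold change 1.23) and Col3a1 (log2 fold change 0.87) did not meet it. The lysyl oxidase family amounted to 5.91%, 8.54% and 6.59% of the summed CPM per kilobase of Col1a1, Col1a2 and Col3a1 in the 0%-Axitinib samples and to 14.8%, 4.25% and 7.43% in the 3%-Axitinib samples. Relative to these chains the oxidases were thus highest in replicate 1 and lowest in replicate 2 of the 3%-Axitinib group, with no separation of the groups (exact permutation p = 0.8). For the lysyl hydroxylases the corresponding shares were 5.33% ± 2.02 and 3.66% ± 1.87, and for the prolyl 4-hydroxylase alpha subunits 3.53% ± 1.49 and 2.41% ± 1.38 (SD, n = 3), both with overlap. Eln, the elastin gene and the other substrate of the oxidases, gave −0.11 on the log2 scale (standard error 0.40), with 87.5, 64.2 and 33.5 CPM without the drug and 79.0, 38.2 and 54.5 CPM with it.

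**Figure D3:**
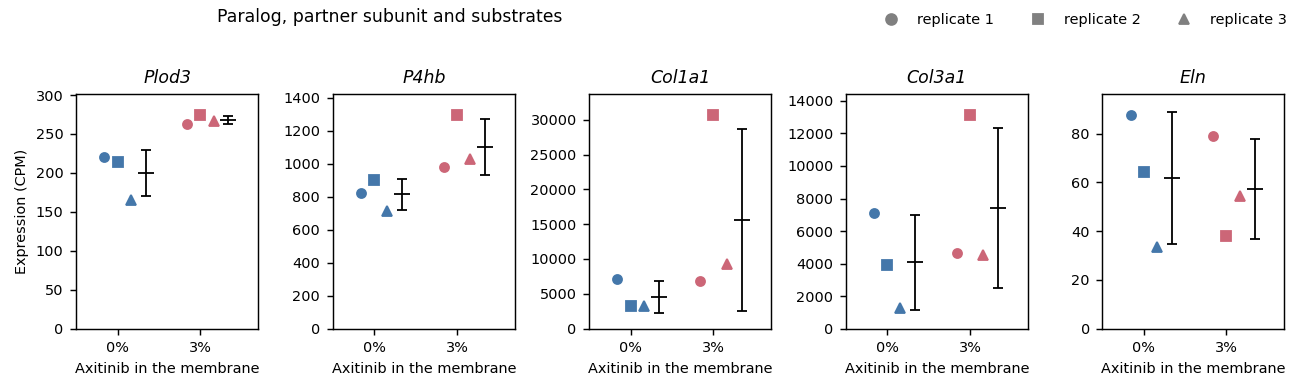
Expression (CPM, vertical axes from 0) of Plod3, P4hb, Col1a1, Col3a1 and Eln in the 3 samples of each group, with marker shape for the replicate number and bars for mean ± SD. Col1a1 and Col3a1 peak in replicate 2 of the 3%-Axitinib group (30639 CPM for Col1a1), whereas Eln overlaps between the groups.

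Other genes that modify and fold collagen gave 4 of 19 higher by the criterion and 0 lower, beside 9.54% and 11.7% of tested genes (median log2 fold change 0.44). The most abundant gene of a list is named per kilobase and by the mean of the 6 samples. The largest values were those of Fkbp10, a peptidyl-prolyl isomerase that assists lysyl hydroxylation of telopeptides (1.52, standard error 0.47), and of P3h4, a partner of Plod1 in the endoplasmic reticulum (1.33, standard error 0.36). Fkbp10 was expressed at 70.5, 38.7 and 84.8 CPM without axitinib and at 115, 311 and 129 CPM with it, so all 3 samples of the 3%-Axitinib group were higher and replicate 2 was again the highest. Among procollagen processing and fibril assembly genes, 4 of 14 tested genes were higher (9.54% of all tested genes) and 0 lower (11.7%; median 0.84), and 4 of the 18 listed genes had too few reads. Of the genes that met the criterion, those with the largest log2 fold changes were Fmod, a fibril-binding proteoglycan that recruits Lox to collagen (1.87), and Sparc, a collagen-binding matricellular protein (1.60). Of 11 fibrillar collagen chains, 2 were higher (9.54% of tested genes), namely Col1a1 and the cartilage collagen Col2a1 (log2 fold change 2.53). The groups overlapped for each of the 11 (median 0.87). Of the tested genes, 14.7% were higher without overlap and 16.6% were lower without overlap. Of 11 other collagen chains, 0 were higher and 0 were lower, beside 9.54% and 11.7% of tested genes (median 0.33). Col6a1 was the most abundant of them per kilobase (log2 fold change 0.95, standard error 0.60).

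The elastic fibre genes gave 4 of 13 higher and 0 lower, against 9.54% and 11.7% of tested genes (median log2 fold change 0.95). Mfap5, a microfibril protein, reached 1.43 (standard error 0.46) and Fbln1, a fibulin, 1.39 (standard error 0.40), whereas Fbln2, the most abundant per kilobase, did not meet the criterion at 1.17 (standard error 0.60). Of 8 genes that supply copper, iron or ascorbate to these enzymes, 0 were higher and 1 was lower (median −0.47), beside 9.54% and 11.7% of tested genes. The lower one was Slc40a1, the cellular iron exporter, at 10.5, 17.3 and 112 CPM without axitinib and at 0.770, 5.01 and 3.36 CPM with it, and the highest value came from replicate 3 of the 0%-Axitinib group. Atox1, the copper chaperone and most abundant gene of that list per kilobase, stood at a log2 fold change of 0.38 (standard error 0.25).

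Some of the enzymes are known targets of hypoxia-inducible factors. In the list of oxygen sensors and hypoxia-inducible genes, 4 of 14 were higher and 1 was lower, where 9.54% and 11.7% of tested genes were (median log2 fold change 0.57), with Ddit4 (1.59, standard error 0.34) and Bnip3 (1.20, standard error 0.46) at the top and Hif1a at −0.63 (standard error 0.20). Ddit4 was expressed at 48.7, 42.7 and 47.3 CPM without axitinib and at 193, 75.3 and 150.1 CPM with it. Among the 3%-Axitinib samples Ddit4 was lowest in replicate 2, as were Bnip3 and Egln2, whereas Vegfa and Hif1a were lowest in replicate 3. Replicate 2 was the sample in which 9 of 10 enzymes peaked, and the part of hypoxia in their levels was not tested.

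The promoters of the enzymes were searched for the core letters of the hypoxia response element, ACGTG or GCGTG, on both strands of the 250 bases before the annotated start. In the promoter table used (RefSeq, GRCm38.p6), entries were matched by name for 5 of the 10 enzymes, namely Loxl4, Plod1, P4ha1, P4ha2 and P4ha3, and no entry was matched in that table for Lox, Loxl1, Loxl2, Loxl3 and Plod2. At least 1 match was found in 4 of the 5, and 38.6% of 32851 promoters of the same length held one (16.6% for ACGTG and 28.2% for GCGTG). The E-box CACGTG contains ACGTG, so the searches overlap with that motif. P4ha1 and P4ha2 each had 3 matches, Loxl4 and Plod1 had 1 each, and P4ha3 had 0. The sequences of the 3 matched enzymes that met the criterion and of P4ha1, which did not meet it, are given 5′ to 3′ on the strand of the gene, with the matches in capitals. They come from chr4:147936777-147937026 (minus strand) for Plod1, chr19:42612807-42613056 (minus strand) for Loxl4, chr11:54100674-54100923 (plus strand) for P4ha2 and chr10:59323046-59323295 (plus strand) for P4ha1, and the Loxl4 window includes the first bases of the Loxl4 exon as GENCODE draws it. The P4ha2 window lies inside the gene in that annotation, outside its exons.
Plod1: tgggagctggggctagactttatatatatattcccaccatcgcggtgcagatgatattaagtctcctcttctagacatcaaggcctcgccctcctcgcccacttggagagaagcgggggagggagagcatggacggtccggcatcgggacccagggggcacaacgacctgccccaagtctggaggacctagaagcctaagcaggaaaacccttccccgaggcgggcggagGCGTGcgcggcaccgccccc
Loxl4: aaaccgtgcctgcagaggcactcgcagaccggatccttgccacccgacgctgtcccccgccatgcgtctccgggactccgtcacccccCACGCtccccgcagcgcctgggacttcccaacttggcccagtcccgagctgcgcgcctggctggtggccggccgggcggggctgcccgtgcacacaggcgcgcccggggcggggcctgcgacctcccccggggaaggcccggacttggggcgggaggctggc
P4ha2: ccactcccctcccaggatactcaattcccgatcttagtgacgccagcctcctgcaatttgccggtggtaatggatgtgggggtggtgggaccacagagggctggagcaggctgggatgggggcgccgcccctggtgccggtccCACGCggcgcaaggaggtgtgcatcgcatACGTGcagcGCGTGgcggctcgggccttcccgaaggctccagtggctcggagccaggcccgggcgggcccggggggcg
P4ha1: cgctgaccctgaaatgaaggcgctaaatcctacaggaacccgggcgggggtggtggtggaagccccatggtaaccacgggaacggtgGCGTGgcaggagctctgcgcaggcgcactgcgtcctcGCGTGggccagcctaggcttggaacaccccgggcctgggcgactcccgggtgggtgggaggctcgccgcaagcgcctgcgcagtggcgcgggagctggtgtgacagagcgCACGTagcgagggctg
These matches describe letters only, and binding of any factor was not measured.

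Markers of several cell types also differed between the groups, and their part in the differences of the enzymes was not tested. Of the osteoblast and bone markers, 4 of 10 were higher by the criterion (9.54% of tested genes), and their summed level was 1380, 1526 and 1934 CPM in the 0%-Axitinib samples, compared with 2890, 18129 and 4034 CPM in the 3%-Axitinib samples. Within the 0%-Axitinib group the sum was highest in replicate 3, where 9 of 10 enzymes were lowest. Replicate 2 of the 3%-Axitinib group, in which 9 of 10 enzymes were highest, had the largest sum by far. Ibsp contributed 10536 CPM and Spp1, the most abundant per kilobase over the mean of the 6 samples, 5575 CPM to that sum, while Bglap was between 0.55 and 111 CPM and overlapped. Of 9 tested chondrocyte markers, 6 were higher (9.54% of tested genes), with summed levels of 304, 189 and 144 CPM without axitinib and 294, 1158 and 458 CPM with it, Comp as the most abundant per kilobase, and Acan at 4.96, 11.8 and 2.12 CPM against 31.1, 170.5 and 84.3 CPM. Replicate 2 of the 3%-Axitinib group was the highest sample here too, and Matn1 and Matn3 had at most 4 reads in any sample.

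Of 8 fibroblast markers, 2 were higher by the criterion, 0 were lower and 8 had a fitted value above 0, beside 9.54%, 11.7% and 48.2% of tested genes (median log2 fold change 0.69), with sums of 5583, 2811 and 2404 CPM without the drug and 6737, 4667 and 5498 CPM with it. Dcn was the most abundant per kilobase, and Dpt overlapped (log2 fold change 0.25, standard error 0.54). The myofibroblast and smooth muscle list had 1 of 7 higher and 1 lower (9.54% and 11.7% of tested genes), with sums of 591, 251 and 433 CPM and of 1686, 397 and 815 CPM. The higher one was Des, which is also on the skeletal muscle list and gave 1319, 21.7 and 607 CPM of the sums in the 3%-Axitinib samples. Skeletal muscle markers were higher by the criterion for 15 of 17 tested genes (9.54% of all tested genes), though not for Acta1, the most abundant per kilobase, and summed to 184, 33.9 and 35.3 CPM without axitinib and to 16117, 47.9 and 8742 CPM with it. High muscle sums were thus confined to replicates 1 and 3 of the 3%-Axitinib group, whereas replicate 2, with 47.9 CPM, had the highest value of 9 of 10 enzymes.

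Endothelial markers were lower for 10 of 10 genes (11.7% of tested genes), with sums of 782, 513 and 958 CPM without axitinib and 168, 255 and 306 CPM with it, Cldn5 as the most abundant per kilobase by the mean, through its level in replicate 3 of the 0%-Axitinib group, and Pecam1 at a log2 fold change of −1.61 (standard error 0.31). Of 10 macrophage markers, 0 were higher and 0 were lower by the criterion, beside 9.54% and 11.7% of tested genes. Their sums lay between 8774 and 17285 CPM. Lyz2 was the most abundant per kilobase, and Csf1r stood at a log2 fold change of −0.20 (standard error 0.33). Of 7 adipocyte markers 3 were lower by the criterion (11.7% of tested genes) and 4 were lower without overlap (16.6%). A fitted value above 0 was found for 0 of the 7 (48.2% of tested genes). Their sums were 1784, 2832 and 1275 CPM without axitinib and 930, 772 and 1225 CPM with it. Fabp4 was the most abundant per kilobase. Adipoq was at 22.0, 16.7 and 22.4 CPM without axitinib and at 16.1, 0.456 and 2.95 CPM with it. Keratinocyte markers (2 of 6 tested, 1 lower, beside 11.7% of tested genes) were near 0 in all samples but replicate 2 of the 0%-Axitinib group. Krt14 had 3044 reads there and between 0 and 7 reads in the others. Krt10, the more abundant per kilobase of the 2 tested genes, reached 222 CPM in that sample. The depth differed as well, with 9225518 and 11686084 reads on genes in replicates 1 and 2 of the 3%-Axitinib group against at least 16716411 in the other 4 samples, and its part in the differences was not tested.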

How the data were processed

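Poly(A) RNA of the murine tissues of 6 samples was sequenced on an Illumina HiSeq. The authors filtered the reads with fastp, aligned them to mm10 with STAR 2.5.2b (version from the submitters' processing notes) and deposited raw read counts per gene symbol. The annotation release and the use of strand are not given in the sources used here. Lines of reads given to no gene (4) held 19.1% to 57.8% of a library and entered neither library sizes nor tests.

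The analysis used edgeR 4.0.16 under R 4.3.3: filterByExpr (minimum count 10, minimum total 15), TMM normalization and the quasi-likelihood test, adjusted across tested genes by Benjamini-Hochberg. CPM was divided by the exon union of GENCODE M21 for comparisons between genes. Alternatives used DESeq2 1.42.0, limma 3.58.1, other scalings, filters, a replicate block and each sample left out. The tests were tried on simulated counts. Python 3.11.15 and matplotlib 3.10.9 made the figures.

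The members and lists were chosen with earlier results of these data known. Named genes were all members, fixed partners and substrates, and of each pathway list the most abundant gene per kilobase and at most 2 of the largest increases and 2 of the largest decreases meeting the criterion; of each marker list, the most abundant and the defining genes were named, and genes outside this rule were named after their values were seen. The sequences are from RefSeq (GRCm38.p6).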

Additional observations from a re-analysis of the deposited data

Results flagged for a closer look

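Reads that STAR could not map lie outside the counts compared here. They made up 48.4%, 29.2% and 16.8% of the reads in replicates 1, 2 and 3 of the 3%-Axitinib group, each above the highest share in the 0%-Axitinib group (14.9%, in replicate 3). The order of the unmapped shares within the 3%-Axitinib group was not that of the enzymes, most of which were highest in replicate 2. The species of these reads was not analysed here, and their part in the levels of the enzymes was not tested.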

How the results depend on the processing

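Of 140 refits of single enzymes, 127 kept direction and call, 3 (all of Loxl1) no longer met the criterion, 9 (Loxl2, Loxl3 and P4ha3) newly met it, and 1 turned: P4ha1, whose log2 fold change was −0.0186 without replicate 3 of the 0%-Axitinib group and ranged up to 0.58 over the samples left out. The number of genes called by adjusted p was 1748 with DESeq2's Wald test, 2 with limma-voom, 15 without a filter on low counts, 2 with the replicate block, and from 0 to 1252 with single samples left out. DESeq2's Wald test, run on 26823 genes with low counts included, called 4 enzymes by adjusted p and 7 by the criterion (Loxl3 and P4ha3 in addition), beside 6.52% and 6.42% of those genes. With single samples left out, from 1055 to 2274 genes and from 4 to 8 enzymes were higher by the criterion. From 5 to 10 enzymes then had groups without overlap, beside 17.1% to 26.5% of tested genes that were higher without overlap. With the replicate block 7 enzymes and 8.19% of tested genes were higher by the criterion. Between samples with the same number, deviations from the group mean had correlations of 0.18, −0.12 and −0.17. Samples with different numbers were not compared, so these values cannot decide whether the samples were paired. Scaling by total counts moved the median of tested genes from −0.03 to −0.16. Among genes that met the criterion in either direction, it moved the share that was higher from 44.9% to 28.8%. With this scaling 5 enzymes met the criterion (6.48% of tested genes higher) and 4 had groups without overlap (10.3%), as did 4 without a filter on low counts (9.24%). Of 158 refits of shares, sums and ratios, 157 moved by less than the spread between replicates, and 10 changed sign, all for values whose groups overlapped. The lysyl hydroxylase sum moved from a difference of 40.4 to 62.1 CPM per kilobase with the longest transcript as length, which also ended the separation of the P4ha1 shares. In the refits with the longest transcript the CPM were the same and only the length differed. The cause of the other changes was not tested.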
